A study of Mus musculus with 6 samples.

Results

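The 8 genes described here encode proteins that steer T cells into, within and out of lymphoid tissue: the chemokine receptors Ccr7 and Cxcr4, the sphingosine 1-phosphate (S1P) receptors S1pr1 and S1pr4, the transcription factor Klf2, and the surface proteins Selplg, Cd44 and Cd69. They were chosen by name, found through their Ensembl mouse gene IDs, and make up 8 of the 52856 rows of the count table. All 8 passed the filter on low counts, as did 14387 rows in all.

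The groups were 3 libraries of miPEP31-/- cells (KO) and 3 libraries of wild-type cells (WT). Both came from splenic CD4+ T cells of C57BL/6 mice aged 8 weeks, and both had been stimulated for 48 h with antibodies to CD3 and CD28, so no library shows unstimulated cells. The peptide miPEP31 is translated from the precursor transcript that also gives rise to miR-31. The labels do not say how the allele was made, what sex the mice were, or whether the libraries of a genotype came from separate mice, so p-values measure the spread between these libraries, which may be technical.

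Naive T cells enter lymph nodes with the help of CCR7, and they leave along a gradient of S1P that is sensed mainly by S1PR1. KLF2 promotes transcription of S1pr1 in T cells, and stimulation through the T cell receptor lowers Klf2. CD69, which stimulation and type I interferon both induce, binds S1PR1 and removes it from the cell surface, so that a cell with unchanged S1pr1 mRNA can still be retained.

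In KO cells Cd69 and Cd44 rose, and Cxcr4, Klf2, Ccr7 and Selplg fell, while S1pr1 and S1pr4 did not pass the test. Of the 8 genes, 2 were thus higher and 4 lower in KO (edgeR quasi-likelihood test, adjusted p under 0.05). Over all tested genes 25.1% were higher and 22.2% lower in KO, and 47.3% passed in either direction. The members' median absolute log2 fold change was 0.80, against 0.34 over all tested genes, and their median signed log2 fold change was -0.43, against 0.012. For 2 of the 8 genes all KO libraries lay above all WT libraries, as they did for 34.0% of tested genes, and for 4 all KO libraries lay below, as they did for 25.4%.

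Library totals ranged from 22865450 to 26295735 counts, and levels are given as CPM, counts scaled to the same total in every library. Because 6806 of 14387 tested genes differed between the genotypes, a call on 1 gene sits in a transcriptome that differed broadly. A list of 16 type I interferon response genes was higher in KO throughout (16 of 16 by the edgeR test), and its median log2 CPM exceeded the WT mean by 6.01, 5.45 and 4.68 in KO replicates 1, 2 and 3. The WT replicates lay within -0.056 and 0.031 of that mean. The part of the interferon response in the values below was not tested.

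Klf2 and Cxcr4 are shown with the 250 bases before their RefSeq start sites, because they had the largest falls among the 8 genes and RefSeq sequences were given for them. The sequences are from RefSeq on GRCm38.p6, 5′ to 3′ on the strand of the gene. The Klf2 window is chr8:72318812-72319061 on the plus strand and the Cxcr4 window is chr1:128592300-128592549 on the minus strand. Capitals mark matches to an EGR motif (GCGNGGGCG, in both windows, on the opposite strand in Cxcr4) and, in Klf2, to a MEF2 motif (CTA and TAG with any 4 bases between), each searched on both strands.
Klf2: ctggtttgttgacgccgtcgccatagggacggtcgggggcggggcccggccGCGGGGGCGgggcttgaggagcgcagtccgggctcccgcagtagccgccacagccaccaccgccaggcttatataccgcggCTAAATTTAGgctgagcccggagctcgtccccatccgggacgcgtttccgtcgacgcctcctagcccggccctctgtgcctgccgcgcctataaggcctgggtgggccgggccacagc
Cxcr4: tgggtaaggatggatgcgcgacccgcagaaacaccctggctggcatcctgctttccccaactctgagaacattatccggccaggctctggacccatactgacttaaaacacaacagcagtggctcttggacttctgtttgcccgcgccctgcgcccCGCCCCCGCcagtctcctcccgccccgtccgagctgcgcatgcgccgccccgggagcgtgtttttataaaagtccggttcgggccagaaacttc
The RefSeq start of Klf2 lies downstream of the GENCODE start, so the last bases of its window fall within the GENCODE gene.

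Counting the base before the start as -1, the EGR match of Klf2 begins at -199 and its MEF2 match at -118, and the EGR match of Cxcr4 begins at -94. An EGR match was present in 4.70% and a MEF2 match in 3.20% of 32851 RefSeq mouse promoter windows of the same length. The shorter KLF motif CCNCNCCC had 4 matches in Klf2 and 3 in Cxcr4, some of which overlap the EGR matches or each other, and 45.9% of all windows held at least 1. The windows were rich in G and C, at 71.2% in Klf2 and 61.2% in Cxcr4, against a median of 52.4%. The shares of windows with a match are over windows of any base content. No share was computed for windows this rich in G and C. Neither window held the FOXO motif GTAAACA, the interferon response element (GAAA, any 2 bases, GAAA), the STAT motif TTCNNNGAA or the AP-1 motif TGANTCA. These letters are present in 3.17%, 2.98%, 7.02% and 6.75% of all windows in that order. The core of the hypoxia response element (ACGTG or GCGTG) had 1 match in Cxcr4, at -39, and none in Klf2, and 38.6% of all windows held it. RefSeq windows were given for 4 of the 8 genes, and those of Cd44 and S1pr4 were also searched. Cd44 had 3 KLF matches and 1 hypoxia match at -29, S1pr4 had none, and neither held an EGR, MEF2, FOXO, interferon, STAT or AP-1 match. A match describes letters in a window and not binding.

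Klf2 (ENSMUSG00000055148, chromosome 8, 72319033 to 72321656, plus strand, GRCm38) encodes a zinc finger factor. It had 3.25, 3.92 and 6.47 CPM in KO replicates 1 to 3 and 8.86, 11.6 and 11.5 CPM in WT replicates 1 to 3. Every KO library lay below every WT library, and KO replicate 3 came nearest to the WT values. Its mean was 4.55 ± 1.70 CPM in KO and 10.6 ± 1.55 CPM in WT (SD, n = 3 each). The log2 fold change was -1.27 (SE 0.25, 95% interval -1.85 to -0.70, edgeR adjusted p = 0.00407), a level 2.42-fold lower in KO. It had the fewest counts of the 8 genes in both groups, at 75, 103 and 148 counts in KO and 208, 279 and 268 counts in WT. In bulk RNA, fewer cells that express a gene and less RNA per cell cannot be told apart, here or for the genes below.

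Ccr7 (ENSMUSG00000037944, chromosome 11, 99144196 to 99155077, minus strand), the receptor for the chemokines CCL19 and CCL21 of the T cell zones, had 251, 244 and 216 CPM in KO and 510, 398 and 395 CPM in WT. The KO libraries lay close together and below all WT libraries, and WT replicate 1 stood above the other two. Means were 237 ± 18.5 CPM in KO and 434 ± 65.7 CPM in WT (SD, n = 3 each). Ccr7 fell by 0.92 on the log2 scale (SE 0.11, edgeR adjusted p = 0.000421), which is 1.89-fold lower. It was the 1 member whose KO libraries spread less than its WT libraries on the log2 scale.

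Cxcr4 (ENSMUSG00000045382, chromosome 1, 128588199 to 128592293, minus strand), the receptor for CXCL12 that serves retention in bone marrow and positioning in lymphoid tissue, showed the largest fall of the 8 genes. It had 16.3, 24.7 and 35.0 CPM in KO and 81.1, 85.8 and 73.2 CPM in WT. The groups did not overlap, and the KO libraries differed among themselves more than the WT libraries did. Means were 25.3 ± 9.40 CPM in KO and 80.0 ± 6.35 CPM in WT (SD, n = 3 each), and the log2 fold change was -1.71 (SE 0.23, 95% interval -2.23 to -1.18, edgeR adjusted p = 0.000657), 3.26-fold lower. Of all tested genes, 2.94% had a lower log2 fold change.

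S1pr1 (ENSMUSG00000045092, chromosome 3, 115710433 to 115715072, minus strand), the receptor on which T cell egress depends, had 26.8, 37.5 and 48.4 CPM in KO and 28.7, 28.2 and 25.6 CPM in WT. KO replicate 1 fell inside the WT range and the other two KO libraries lay above it. Means were 37.6 ± 10.8 CPM in KO and 27.5 ± 1.68 CPM in WT (SD, n = 3 each). The log2 fold change of 0.40 (SE 0.18, 95% interval -0.020 to 0.83, edgeR adjusted p = 0.105) did not pass. Without KO replicate 1 it was 0.59 and passed (edgeR adjusted p = 0.00334).

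S1pr4 (ENSMUSG00000044199, chromosome 10, 81497747 to 81500132, minus strand), an S1P receptor found mostly on lymphoid and myeloid cells, had 28.2, 34.2 and 42.6 CPM in KO and 38.0, 39.8 and 37.6 CPM in WT. The KO libraries spanned the narrow WT range, with a pair of them below it and KO replicate 3 above it. Means were 35.0 ± 7.21 CPM in KO and 38.5 ± 1.18 CPM in WT (SD, n = 3 each). The log2 fold change was -0.18 (SE 0.13, 95% interval -0.49 to 0.12, edgeR adjusted p = 0.289) and did not pass, while without KO replicate 3 it was -0.36 and passed (edgeR adjusted p = 0.0112). Ncln and Gna15 lie 1355 and 2174 bases from S1pr4 on the same strand and share no exon bases with it. Ncln rose by 0.32 on the log2 scale (edgeR adjusted p = 0.0180) and Gna15 did not pass.

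Selplg (ENSMUSG00000048163, chromosome 5, 113818536 to 113832644, minus strand) encodes PSGL-1, a ligand of P-selectin that also binds CCL19 and CCL21. It had 195, 240 and 273 CPM in KO and 397, 354 and 345 CPM in WT. The groups did not overlap. Means were 236 ± 39.4 CPM in KO and 365 ± 27.8 CPM in WT (SD, n = 3 each), and Selplg fell by 0.68 on the log2 scale (SE 0.12, edgeR adjusted p = 0.00228), 1.60-fold lower.

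Cd44 (ENSMUSG00000005087, chromosome 2, 102811141 to 102901665, minus strand), a hyaluronan receptor that increases when T cells are activated, had 188, 144 and 122 CPM in KO and 115, 97.0 and 102 CPM in WT. The groups did not overlap, but KO replicate 3 and WT replicate 1 lay close together. Means were 151 ± 34.0 CPM in KO and 105 ± 9.38 CPM in WT (SD, n = 3 each), and Cd44 rose by 0.49 on the log2 scale (SE 0.15, 95% interval 0.13 to 0.84, edgeR adjusted p = 0.0306), 1.40-fold higher. This was the weakest of the 6 calls. Unfiltered counts ended this call (edgeR adjusted p = 0.146), and so did each fit in which KO replicate 2 (adjusted p = 0.0659), WT replicate 1 (0.0544), WT replicate 2 (0.111) or WT replicate 3 (0.0996) was missing. Without KO replicate 1 it passed at a log2 fold change of 0.29 (edgeR adjusted p = 0.0302).

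Cd69 (ENSMUSG00000030156, chromosome 6, 129267325 to 129275436, minus strand), the C-type lectin that retains activated T cells, changed most among the 8 genes. It had 236, 166 and 114 CPM in KO and 36.6, 29.4 and 30.0 CPM in WT. The lowest KO library was far above the highest WT library, and the KO libraries were spread over a wide range with replicate 1 highest and replicate 3 lowest. The interferon genes had their highest and lowest KO medians in the same libraries. Ccr7, Cd44 and 27.7% of all tested genes also had this order in KO, and a link was not tested. Means were 172 ± 61.2 CPM in KO and 32.0 ± 3.97 CPM in WT (SD, n = 3 each), and the log2 fold change was 2.39 (SE 0.25, 95% interval 1.82 to 2.96, edgeR adjusted p = 0.000199), 5.23-fold higher. Of all tested genes, 98.2% had a lower log2 fold change.

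**Figure D1:**
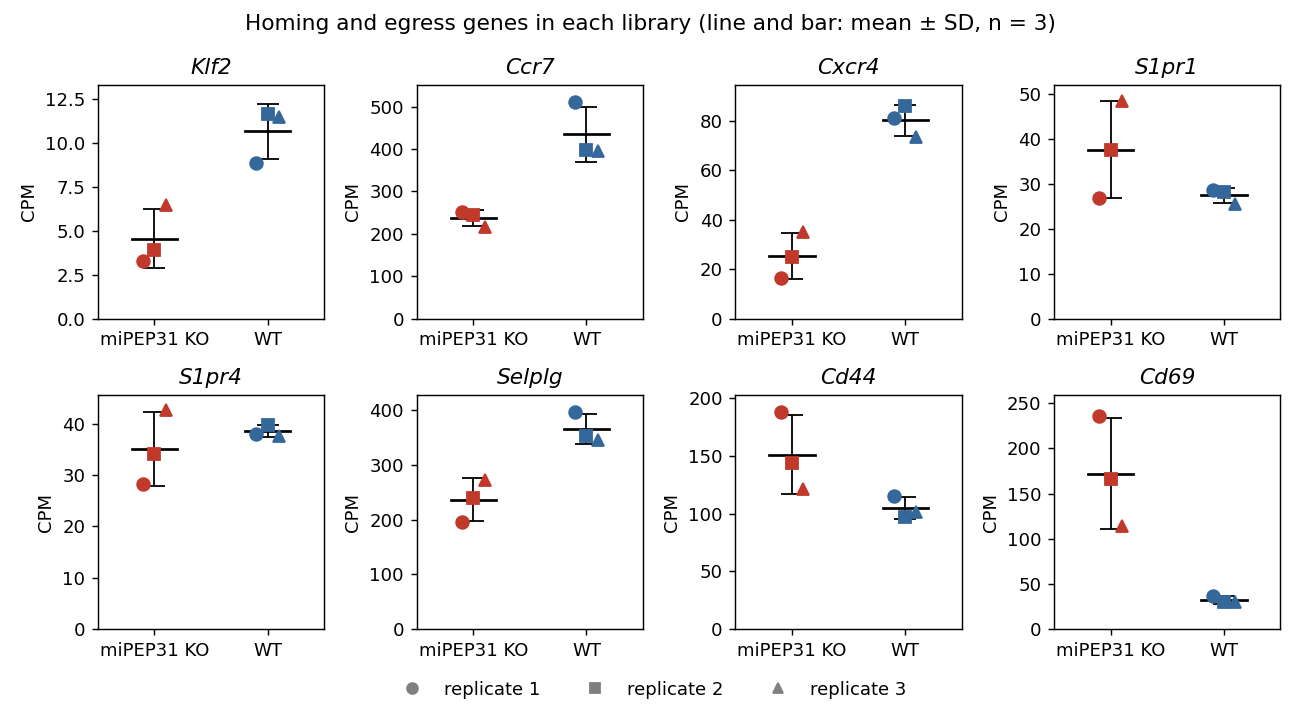
CPM of the 8 genes in each library, with miPEP31 KO (red) left of WT (blue), a linear axis from 0 for each gene, and the mean ± SD of 3 libraries as a line and bar. The groups do not overlap for Klf2, Ccr7, Cxcr4, Selplg, Cd44 and Cd69, and they overlap for S1pr1 and S1pr4.

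**Figure D2:**
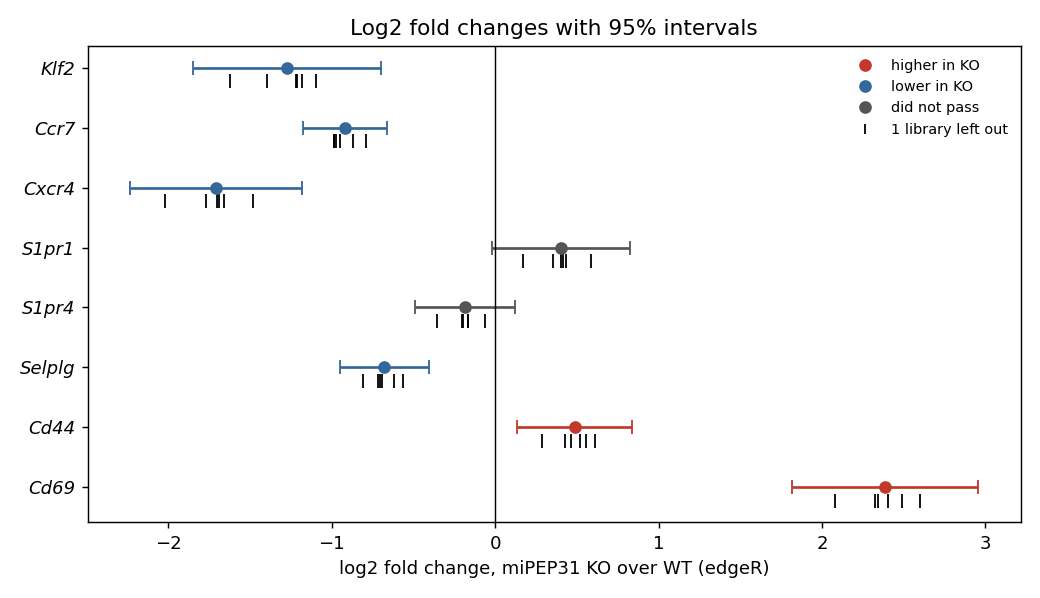
Log2 fold changes, KO over WT, from the edgeR model (points) with 95% intervals (bars), coloured by whether the gene passed at adjusted p under 0.05, with ticks below each bar for the value when 1 library is left out. The ticks of each gene stay on 1 side of 0, from 2.08 to 2.60 for Cd69 and from -2.02 to -1.48 for Cxcr4.

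The KO libraries varied more than the WT libraries. The median SD of log2 CPM over the 8 genes was 0.37 in KO and 0.12 in WT, against 0.16 in KO and 0.10 in WT over all tested genes. The SD was larger in KO for 7 of the 8 genes and for 67.6% of tested genes. KO replicate 2 lay between the other KO libraries for all 8 genes and for 55.9% of tested genes. Ccr7, Cd44 and Cd69 were highest in KO replicate 1 and lowest in KO replicate 3, an order found in 27.7% of tested genes. Klf2, Cxcr4, S1pr1, S1pr4 and Selplg ran the other way, as 28.2% of tested genes did. KO replicate 3 thus stood nearest to the WT libraries for Klf2, Cxcr4, Selplg, Cd44 and Cd69, and farthest from them for Ccr7 and S1pr1. What sets these libraries apart is not given in the labels.

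Ratios of counts within a library, which do not depend on scaling between libraries, set the genes against each other. Cd69 over S1pr1 was 8.81, 4.44 and 2.36 in KO and 1.27, 1.04 and 1.18 in WT, so the groups did not overlap although the KO values differed widely. S1pr1 over Klf2 was 8.24, 9.56 and 7.48 in KO and 3.24, 2.43 and 2.23 in WT, without overlap. S1pr1 over S1pr4 was 0.949, 1.10 and 1.14 in KO and 0.754, 0.709 and 0.680 in WT, again without overlap, though neither gene passed alone. The ratio of Cd44 to Ccr7, an activation-associated gene over a naive-associated one, was 0.751, 0.589 and 0.564 in KO and 0.226, 0.244 and 0.258 in WT. These ratios were chosen with the values known and are given as descriptions.

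**Figure D3:**
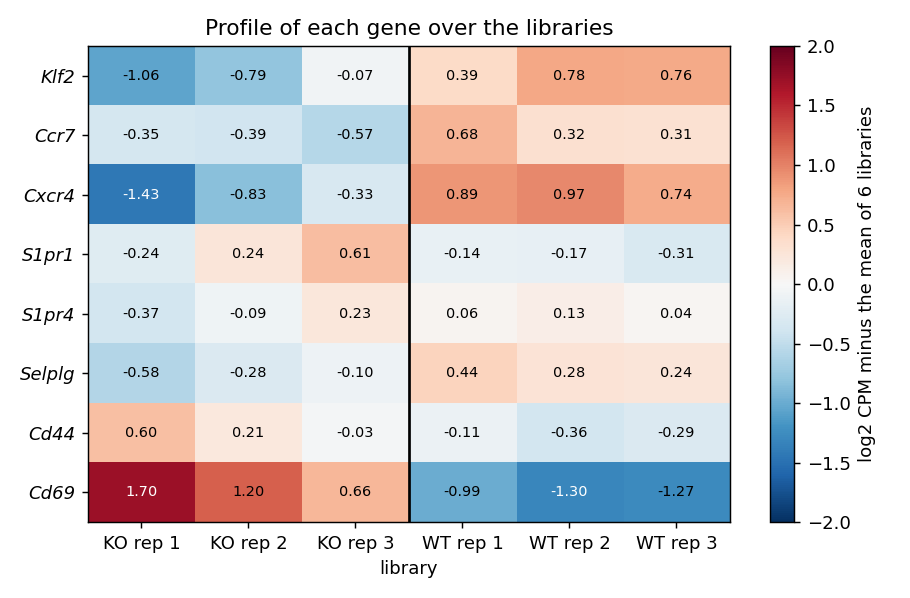
Log2 CPM of each gene minus its mean over the 6 libraries, as numbers and colours (blue below 0, red above), with the KO replicates left of the WT replicates. Cd69 runs from 1.70 in KO replicate 1 to -1.30 in WT replicate 2, and Cxcr4 from -1.43 in KO replicate 1 to 0.97 in WT replicate 2.

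Levels of different genes were compared per kilobase of the union of annotated exons. In KO the order was Ccr7 (120 ± 9.38 CPM per kilobase, SD, n = 3), Selplg (55.2 ± 9.21), Cd69 (26.5 ± 9.40), Cd44 (22.3 ± 5.01), S1pr4 (14.7 ± 3.02), Cxcr4 (14.0 ± 5.20), S1pr1 (12.3 ± 3.55) and Klf2 (2.46 ± 0.920). In this order Cd69 and Cd44 did not differ beyond their spread, nor did S1pr4, Cxcr4 and S1pr1. In WT the order was Ccr7 (220 ± 33.2 CPM per kilobase), Selplg (85.5 ± 6.50), Cxcr4 (44.3 ± 3.51), S1pr4 (16.1 ± 0.494), Cd44 (15.4 ± 1.38), S1pr1 (9.02 ± 0.553), Klf2 (5.76 ± 0.837) and Cd69 (4.91 ± 0.610). Here S1pr4 and Cd44 overlapped, as did Klf2 and Cd69. Cd69 thus held rank 3 in KO and rank 8 in WT, and Cxcr4 rank 6 in KO and rank 3 in WT. The order depends on the length used. With the longest protein-coding transcript Selplg held rank 1 in KO, at 127 CPM per kilobase, and Ccr7 rank 2, at 120, while in WT Ccr7 stayed at rank 1. For Cd69 the exon union of 6509 bases is far longer than the longest protein-coding transcript of 1687 bases, with which it had 102 CPM per kilobase in KO and 19.0 in WT, ranks 3 and 4.

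The lists below are read against the 25.1% of all tested genes that were higher and the 22.2% that were lower in KO, and against the median log2 fold change of 0.012 over all of them. Of 5 S1P receptors, 4 were tested, 2 rose and none fell, with a median log2 fold change of 0.46, and S1pr1 and S1pr4 are the 2 that did not pass. S1pr2, which can restrain migration, had 15.4, 17.0 and 21.1 CPM in KO and 13.1, 11.4 and 11.8 CPM in WT, and rose by 0.51 (log2, SE 0.13, edgeR adjusted p = 0.0137). That call was lost without WT replicate 2 (adjusted p = 0.0591) or WT replicate 3 (0.0511). S1pr3 averaged 3.26 ± 0.443 CPM in KO and 2.09 ± 0.231 CPM in WT (SD, n = 3 each) and rose by 0.60 (log2, edgeR adjusted p = 0.0405), but among other settings its call was lost with DESeq2 (adjusted p = 0.0709), with upper-quartile scaling (0.0501), without a low-count filter (0.0833) and whenever any 1 library was left out (0.0531 to 0.124). The number of receptors higher was 1 without KO replicate 2, KO replicate 3 or WT replicate 1, and 0 without WT replicate 2 or WT replicate 3. S1pr5 was under the filter, at 0.0855 to 0.500 CPM over the 6 libraries.

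Among 16 tested genes of S1P synthesis, breakdown and transport, 6 were higher and 2 lower in KO. Asah2, a neutral ceramidase, averaged 11.1 ± 0.937 CPM in KO and 3.61 ± 0.458 CPM in WT (SD, n = 3 each) and rose by 1.57 (log2, edgeR adjusted p = 0.000118). Sgpl1, the lyase that degrades S1P irreversibly, rose by 0.56 and Cers2, a ceramide synthase, by 0.47. Sgpp1, an S1P phosphatase, fell by 0.39, and Plpp2, a lipid phosphatase, fell by 0.76.

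Of 13 tested genes of the KLF family, 7 rose and 3 fell, with Klf2 among those that fell, and the median log2 fold change was 0.85. Klf6 had 173, 139 and 135 CPM in KO and 73.0, 66.6 and 67.3 CPM in WT, with no overlap, and rose by 1.07 (log2, SE 0.10, edgeR adjusted p = 0.000156). Klf8 rose by 2.24 and Klf4, linked to T cell quiescence, by 1.21, while Klf7 fell by 0.71 and Klf13 fell by 0.67 (edgeR adjusted p at or below 0.00591 for the 4).

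Of 18 tested genes of the FOXO and ERK5 routes that feed Klf2 transcription, 2 were higher and 9 lower, with a median of -0.27. Tsc2, an inhibitor of mTORC1, averaged 62.3 ± 3.17 CPM in KO and 50.4 ± 0.888 CPM in WT (SD, n = 3 each) and rose by 0.26 (log2, edgeR adjusted p = 0.00893), a call lost without KO replicate 2 (adjusted p = 0.0513), after which 1 of the 18 was higher. Pik3ip1, an inhibitor of PI3-kinase, had 6.34, 6.39 and 8.05 CPM in KO and 20.0, 18.1 and 17.4 CPM in WT and fell by 1.46. Pik3cd, the p110 delta catalytic subunit, fell by 0.81 and Mef2d fell by 0.69.

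Of 15 tested genes reported as targets of FOXO1 or KLF2, 11 fell and 1 rose, with a median log2 fold change of -0.69. The 15 include 4 of the 8 genes. Of these, Ccr7 and Klf2 fell, while S1pr1 (log2 fold change 0.40) and S1pr4 (-0.18) did not pass. Over all tested genes 22.2% fell and 25.1% rose. Without those 4 genes, 9 of 11 fell and 1 rose. Btla, an inhibitory receptor, averaged 95.9 ± 1.69 CPM in KO and 207 ± 13.4 CPM in WT (SD, n = 3 each), and fell by 1.16 (log2, SE 0.07, edgeR adjusted p = 1.62e-05). Irs2, an adaptor of insulin signalling, rose by 0.44, a call lost without KO replicate 2 (adjusted p = 0.0657), WT replicate 2 (0.0573) or WT replicate 3 (0.0560). Without any of those, none of the 15 was higher, and without KO replicate 1 there were 2.

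Few ligands of CCR7 and CXCR4 were measured in these cells. Of 9 ligands and scavengers 3 passed the filter, and Ccl19, Ccl21a and Cxcl12 were each at or below 0.0875 CPM in every library. Ccrl2, an atypical receptor that binds chemerin, had 37.2, 31.0 and 22.7 CPM in KO and 2.39, 2.58 and 1.88 CPM in WT, rising by 3.68 (log2, SE 0.22, edgeR adjusted p = 1.74e-05). Mif, a cytokine that can bind CXCR4, averaged 445 ± 23.9 CPM in KO and 648 ± 6.79 CPM in WT (SD, n = 3 each) and fell by 0.59.

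Of 39 tested genes that carry signals of chemoattractant receptors, 8 were higher and 16 lower, with a median of -0.13. Grk6, a kinase that desensitises such receptors, had 116, 122 and 117 CPM in KO and 240, 245 and 248 CPM in WT, and fell by 1.09 (log2, SE 0.05, edgeR adjusted p = 8.29e-06). Dock8, which activates CDC42, fell by 0.72 and Rhoh, a GTPase of blood cells, fell by 0.63. Gna12, a G protein alpha subunit, rose by 0.61, Mob1a by 0.42 and Gng5, a gamma subunit, by 0.29. The number higher was 5 without KO replicate 2 and 4 without WT replicate 2 or WT replicate 3.

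Of 10 tested RGS genes, whose proteins shorten G protein signals, 2 rose and 2 fell, shares close to the 25.1% and 22.2% of all tested genes. Rgs1, which limits chemokine and S1P responses, had 200, 201 and 208 CPM in KO and 96.3, 90.3 and 80.3 CPM in WT, and rose by 1.15 (log2, SE 0.08, edgeR adjusted p = 2.69e-05). Rgs2 rose by 0.74. Rgs11 fell by 1.39, a call that did not hold in unfiltered counts (edgeR adjusted p = 0.0683), and Rgs10 fell by 0.43. With plain library sizes 4 of the 10 were higher.

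Of 7 tested selectins and selectin ligands, Selplg included, 6 were lower in KO and none was higher, with a median of -0.98. Selp, the P-selectin gene known from platelets and endothelium, averaged 2.81 ± 0.104 CPM in KO and 19.2 ± 4.07 CPM in WT, and Cd24a averaged 10.2 ± 3.08 CPM in KO and 33.7 ± 1.31 CPM in WT (SD, n = 3 each). They fell by 2.82 and by 1.77 on the log2 scale (edgeR adjusted p = 2.09e-05 and 0.000195). The gene that did not pass was Spn, which encodes CD43 and is named because it was the remaining one.

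The enzymes that build selectin ligands split. Of 30 tested, 13 rose and 9 fell. Chst2, a sulfotransferase, had 21.2, 20.2 and 20.6 CPM in KO and 4.81, 5.29 and 4.23 CPM in WT and rose by 2.07 (log2, SE 0.11, edgeR adjusted p = 1.40e-05). B4galt4 rose by 2.07 and Papss2, which makes the sulfate donor, by 1.91. The sialyltransferase genes St3gal1 and St3gal4 fell by 1.40 and by 0.79, and B4galt1 fell by 0.66.

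For Cd44, 17 partners and hyaluronan genes were tested, of which 7 rose and 4 fell. Spp1, which encodes the CD44 ligand osteopontin, had 55.8, 37.4 and 34.1 CPM in KO and 1.45, 2.04 and 1.84 CPM in WT, and rose by 4.53 (log2, SE 0.24, edgeR adjusted p = 1.21e-05). Cemip2, a cell surface protein linked to hyaluronan breakdown, rose by 1.37 and Adam17, a protease that sheds surface proteins, by 0.38. Esrp2, a splicing factor, fell by 2.77, Nf2 fell by 0.54 and Khdrbs1, a splicing factor that acts on Cd44, fell by 0.33. The counts are per gene and say nothing of Cd44 isoforms.

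A list of C-type lectin genes, drawn up by gene name, rose in part. Of 13 tested, Cd69 included, 7 were higher and none lower, with a median of 0.57. Distance from Cd69 was measured only for Clec2d, so these counts do not describe a region of the chromosome. Among the 7, Clec2l, Klrg1 and Clec7a had few reads, at most 50 counts in any library. Klrk1, which encodes NKG2D, averaged 10.1 ± 1.39 CPM in KO and 5.27 ± 0.584 CPM in WT (SD, n = 3 each) and rose by 0.90 (log2, edgeR adjusted p = 0.00196), and Clec2l, at 1.58 ± 0.402 CPM in KO and 0.465 ± 0.0784 CPM in WT, rose by 1.71. Clec2d, the nearest protein-coding gene to Cd69 on its left at 80791 bases, had 37.8, 36.7 and 36.8 CPM in KO and 28.4, 23.9 and 20.6 CPM in WT, and rose by 0.57 (edgeR adjusted p = 0.00460).

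Of 17 other receptors of lymphoid positioning that were tested, 3 were higher and 7 lower. Ccr9, the receptor for the gut and thymus chemokine CCL25, had 34.3, 31.2 and 29.7 CPM in KO and 7.84, 9.49 and 8.21 CPM in WT, and rose by 1.85 (log2, SE 0.11, edgeR adjusted p = 1.62e-05). Gpr171 rose by 0.65, and Gpr15, a receptor for homing to the colon, by 1.41, a call lost without WT replicate 1 (adjusted p = 0.0694) or WT replicate 2 (0.0691). Gpr174 fell by 0.87, Gpr18 fell by 0.67 and Plxnd1 fell by 0.42.

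Genes tied to tissue residency did not move one way. Of 17 tested, 5 rose, Rgs1 among them, and 8 fell. Prdm1, which encodes BLIMP1, had 36.5, 63.3 and 97.9 CPM in KO and 11.9, 18.1 and 14.7 CPM in WT, and rose by 2.10 (log2, SE 0.33, edgeR adjusted p = 0.00143). Its KO libraries ran in the opposite order to those of Cd69. Hic1 rose by 0.63. P2rx7, a receptor for extracellular ATP, fell by 1.94, Nr4a1 fell by 0.96 and Runx3 fell by 0.65.

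**Figure D4:**
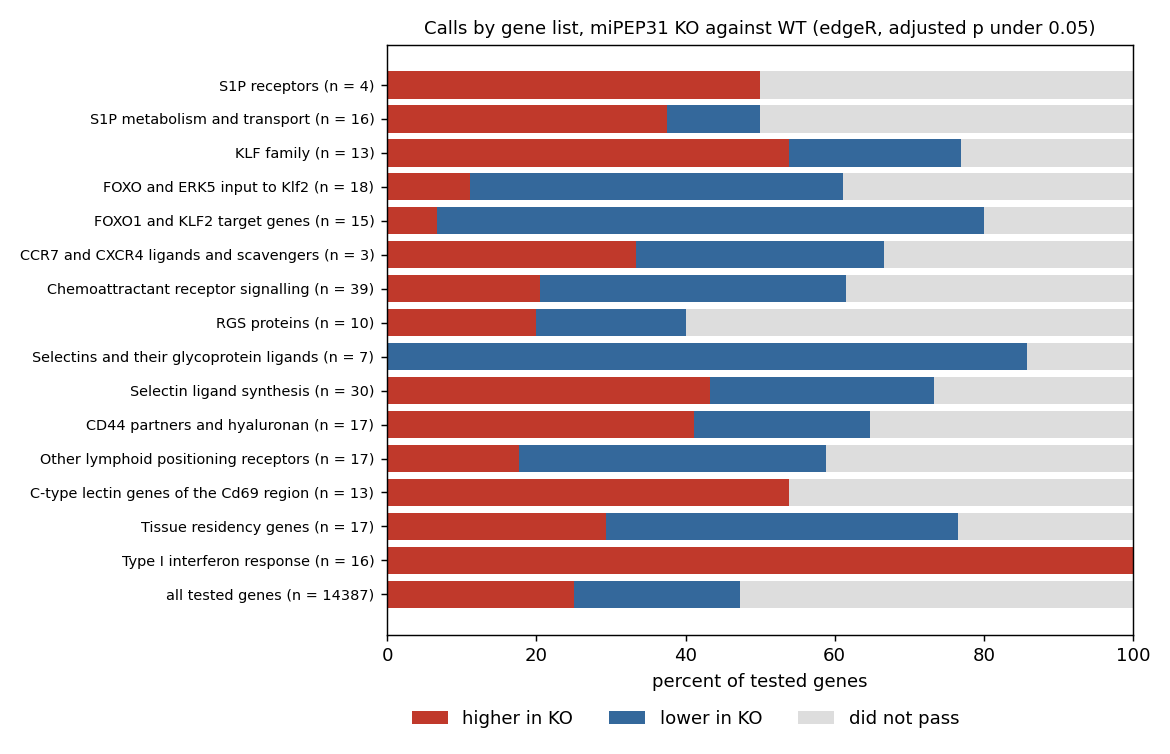
Share of the tested genes in each list that were higher in KO (red), lower in KO (blue) or did not pass (grey) by the edgeR test, with all 14387 tested genes in the bottom row. Selectins and their ligands and the FOXO1 and KLF2 targets show the longest blue bars, at 6 of 7 and 11 of 15 genes, and some genes are in more than 1 list. The C-type lectin list was drawn up by gene name and not by position.

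The genes whose profiles over the 6 libraries came nearest to each member were found among 10981 genes by the root mean square difference of centred log2 CPM. Zscan12 (0.0634) and Pcgf5 (0.0719) came nearest to Ccr7, Mt2 (0.0657) and Rell2 (0.0711) to Cxcr4, Glis2 (0.0952) and Klhl6 (0.109) to Klf2, and Afdn (0.0324) and Kdm5b (0.0368) to Selplg. Ccdc157 (0.0507) and Morn4 (0.0573) came nearest to S1pr1, Ripk3 (0.0273) and Prelid1 (0.0284) to S1pr4, and Ndufaf2 (0.0551) and Mycbp2 (0.0614) to Cd44. Cd69 had no neighbour as close: Gvin1 (0.161), an interferon-inducible GTPase gene, and Psme2b (0.168) were nearest. The measure is not scaled to the size of a change, so a gene with a large change has few candidates near it. Of all tested genes, 98.2% had a lower log2 fold change than Cd69. Among the 8 genes the nearest pair was Ccr7 and Selplg (0.240) and the farthest was Cxcr4 and Cd69 (2.14). The KO libraries of Ccr7 and Selplg ran in opposite orders all the same.

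The labelled cell type was checked against marker genes. The 9 CD4 T cell markers summed to 1759 to 1916 CPM in KO and 2101 to 2212 CPM in WT, and 7 of the 9 were lower in KO. This difference, like each one below without overlap, gave p = 0.1 in the two-sided exact permutation test, the smallest that 3 against 3 libraries allow. Markers without overlap were CD8 T cells (2 markers, 16.0 to 37.5 CPM in KO and 12.3 to 15.5 in WT), NK cells (5 markers, 11.3 to 22.2 in KO and 5.60 to 7.80 in WT, mostly Eomes) and dendritic cells (6 markers, 12.2 to 13.3 in KO and 6.16 to 7.45 in WT, mostly Zbtb46, with Clec9a at 0). Of the CD8 markers, Cd8a passed (log2 fold change 1.89, edgeR adjusted p = 0.00232). Cd8b1 overlapped between the groups and did not pass (0.50, edgeR adjusted p = 0.158). Klrb1c and Klre1, the other NK markers tested, leaned lower in KO without passing (log2 fold changes -1.01 and -0.63). The higher NK sum in KO thus came from Eomes. Platelet markers (4 markers) summed to 3.30 to 5.38 CPM in KO and 1.49 to 2.58 in WT, and stroma markers (5 markers) to 2.01 to 2.34 in KO and 1.20 to 1.62 in WT.

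Endothelial markers (5 markers) summed to 19.2 to 27.2 CPM in KO and 46.7 to 58.6 CPM in WT, nearly all from Pecam1, which T cells also express, while Cdh5, Kdr and Tek were at or near 0. Neutrophil markers (6 markers) reached at most 0.228 CPM in KO and 1.45 in WT, with S100a8, S100a9 and Elane at 0. B cell markers (6 markers) overlapped, at 63.2 to 127 CPM in KO and 63.0 to 91.2 in WT (exact permutation p = 0.6). Macrophage markers (6 markers), with Adgre1 and Fcgr1 at 0, summed to 2.99 to 5.86 CPM in KO and 4.19 to 7.58 in WT (exact permutation p = 0.5), and erythroid markers (5 markers) to at most 0.569 CPM in KO and 1.06 in WT (exact permutation p = 0.4). Among the KO libraries, CD8 and B cell marker sums were highest in replicate 3. So were those of CD4 T cells, macrophages, erythroid cells, platelets and endothelium. NK cell and stroma sums were highest in KO replicate 1, and dendritic cell and neutrophil sums in KO replicate 2. Klf2, Cxcr4, S1pr1, S1pr4 and Selplg were also highest in KO replicate 3. Of all tested genes, 28.2% were highest there with KO replicate 1 lowest, and 10.6% with KO replicate 2 lowest. The part of other cells in the results above was not tested.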

How the data were processed

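Trizol was used to extract RNA and a TruSeq kit to prepare libraries, per the labels' protocols. The authors deposited estimated counts per gene, not all of them whole. Bowtie 0.12.2 and the build mm8 appear in the submitters' processing notes without a role. How reads were counted, with which annotation and whether by strand, is not stated in the sources used here. Gene positions were taken from GENCODE M21 (GRCm38) through the gene IDs.

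Counts were rounded. Rows were filtered with filterByExpr (minimum count 10) of edgeR 4.0.16 in R 4.3.3 and scaled by TMM. The 3 KO libraries were compared with the 3 WT libraries by the robust quasi-likelihood test without covariates. Benjamini-Hochberg adjustment ran over all 14387 tested rows, with 0.05 as the threshold. The SE was derived from the fold change and the F statistic. CPM are counts over the library total, and fold changes come from the TMM-scaled model. Rows with MSTRG IDs (944) took part but have no name. No column of the count table was left out. A second deposited table of 30 genes holds none of the 8 members and was not used.

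Beyond the members, the text names up to 3 passing genes per direction and list by smallest p, the 2 nearest profiles of each member among genes with a mean of at least 1 CPM (log2 CPM with prior count 2), and leading markers of other cell types. Spn and the neighbouring genes were added, and some genes that this rule takes are not reported here. The members, lists and ratios were chosen with earlier results of these data known. Alternatives were DESeq2 1.42.0, limma-voom (limma 3.58.1), other scalings and filters, a replicate block and leaving out each library. The scripts were tested on simulated data.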

Additional observations from a re-analysis of the deposited data

How the results depend on the processing

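Of the 8 genes, Cd69, Cxcr4, Klf2, Ccr7 and Selplg kept their direction and passed under every alternative run, and 4 members were lower in KO in each, or 5 without KO replicate 3. The Cd44 log2 fold change was 0.47 and did not pass without the low-count filter, where 1 member was higher in place of 2, the only change in the members' calls outside the fits that leave out a library. The cause was not tested.

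With 1 library left out, log2 fold changes ranged from 0.29 to 0.61 for Cd44, 0.17 to 0.59 for S1pr1 and -0.36 to -0.059 for S1pr4. The number of members higher ranged from 1 to 3, of S1P receptors higher from 0 to 2 and lower from 0 to 1, of FOXO and ERK5 genes higher from 1 to 2, of FOXO1 and KLF2 targets higher from 0 to 2 and of chemoattractant signalling genes higher from 4 to 8. For the B cell marker sum the log2 ratio was 0.17 and ranged from -0.14 to 0.37, turning negative without KO replicate 3. For Vwf, an endothelial marker that did not pass, it was 0.12 and turned to -0.0078 without KO replicate 2 and -0.030 without WT replicate 1.

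The number of S1P receptors higher was 1 with DESeq2, with upper-quartile scaling, without the low-count filter and with the replicate block. The number of RGS genes higher was 4 with plain library sizes. Scaling moved the median of all genes by at most 0.045 (log2).

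Libraries with the same replicate number did not deviate together over the tested genes (correlations 0.00103, -0.00718 and -0.0156). The labels name no pairing, and these values cannot exclude one that moves few genes. The replicate block gave 5736 calls in place of 6806, left the members' calls as they were and took chemoattractant signalling genes higher to 4. S1pr3 did not pass with the block (edgeR adjusted p = 0.0915).

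Levels per kilobase moved with the gene length. For Cd44 in WT the level was 18.6 with the longest transcript, annotated or protein-coding. For Cd69 it was 102 in KO and 19.0 in WT with the longest protein-coding transcript, a choice made after seeing the data, and 6.44 in WT with the longest annotated one. For Selplg it was 102 in KO and 158 in WT with the longest annotated transcript, and 127 in KO and 197 in WT with the protein-coding one. At this depth S1pr5 was too low to test.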
